A study of Mus musculus with 11 samples.

Results

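Tissue punched from a frozen hippocampus can carry fragments of its neighbours: the choroid plexus and ependyma of the adjoining ventricles, the meninges over the brain surface, and blood left in the vessels. The 34 genes described here mark those tissues. They were taken from the count table by gene name, and all 34 were found among its 17118 genes: 13 mark the choroid plexus, 9 the ependyma, 7 the meninges and 5 the blood. They were followed library by library to show which adjoining tissue each punch held, and then compared between treatments.

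The study asked how chemotherapy acts on cognition and on the gut with its microbes, and for this it sequenced polyadenylated RNA from the hippocampus. All mice were labelled as C57/BL6 females (the strain is also given as C57/BL6J), treated from an age of 12 weeks with 8 intraperitoneal injections at weekly intervals and sampled at 1 month. The 5 AC-T mice (501, 502, 503, 600 and 602) first had 4 weeks of doxorubicin at 2 mg/kg plus cyclophosphamide at 50 mg/kg, then 4 weeks of paclitaxel at 5 mg/kg. The 6 control mice (201, 202, 203, 300, 301 and 302) had 0.9% saline. Doxorubicin is an anthracycline, cyclophosphamide an alkylating agent and paclitaxel a drug that stabilises microtubules. The labels name no tumour. Tissue was punched out of coronal brain slices with a punch labelled 0.2 mm, and each library stands for 1 mouse.

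The choroid plexus is a folded, vascular epithelium in the ventricles that secretes the cerebrospinal fluid. The ependyma is the layer of cells lining the ventricles, whose motile cilia move that fluid. The meninges are fibroblast-rich membranes that wrap the brain and dip into the fissure between the hippocampus and the thalamus. Adult red cells have no nucleus but still carry haemoglobin mRNA, so globin counts in brain follow the blood in the sample.

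The libraries held 23389813 to 32121430 counts each, and the 34 genes together took between 0.123% of them (AC-T 501) and 0.923% (saline 300). Levels are given as CPM, read counts brought to a common library size with the trimmed mean of M values. The table lists some genes at 0 in part of the libraries, and for 2828 such genes the median of the lowest value above 0 was 23 counts. A listed 0 is therefore treated as a level under a limit. Of the 34 genes, 13 had a listed 0 in at least 1 library and 21 were above 0 in every library. Hippocampal neuron markers were present in every punch: the 12 genes of that list summed to between 630 and 1049 CPM. Library saline 300 stood apart, because it had no counts of Xist, the non-coding RNA that silences one X chromosome in female cells, while each of the other libraries had 13057 or more. That is unlike the female label of this mouse. Of 5 X and Y linked genes looked up only Xist was found, so the sex of the mouse could not be checked further. The results that rest most on saline 300 are given with and without it. Mouse numbers fall into 4 series, with the 200s and 300s on saline and the 500s and 600s on AC-T. The labels do not explain the series, and none of them holds both treatments.

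The choroid plexus genes were the most uneven of the 34. Ttr encodes transthyretin, the carrier of thyroid hormone and of retinol-binding protein that choroid plexus epithelium secretes in bulk. In the AC-T mice Ttr was 57.4 CPM in 501, 1249 in 502, 1283 in 503, 5169 in 600 and 2109 in 602. In the saline mice Ttr was 1155 CPM in 201, 501 in 202, 3.96 in 203, 5268 in 300, 79.1 in 301 and 2778 in 302. The counts behind these levels ran from 122 in saline 203 to 156953 in AC-T 600, and the highest CPM was 1332 times the lowest (1307 times without saline 300). High and low punches occurred in both treatments: saline 300 and AC-T 600 were close to each other at the top, and saline 203, saline 301 and AC-T 501 were at the bottom. In bulk tissue a smaller number of epithelial cells and less RNA per cell cannot be told apart.

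The other choroid plexus genes ordered the libraries in nearly the same way. Kl encodes Klotho, a co-receptor for the hormone FGF23, and was 18.2, 48.5, 47.3, 140 and 76.7 CPM in AC-T 501, 502, 503, 600 and 602. In saline libraries Kl ran from 12.1 CPM through a median of 25.3 to 142. Clic6, of the chloride intracellular channel family, was 2.42, 16.6, 20.7, 71.9 and 35.1 CPM in the AC-T libraries in the same order. In saline libraries Clic6 was listed at 0 in 203, had a median of 12.5 CPM and reached 77.3 in 300. For both genes the treatment groups overlapped over almost their whole range, with AC-T 600 just below saline 300 at the top.

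Enpp2 encodes autotaxin, the enzyme that makes lysophosphatidic acid, and oligodendrocytes express it as well as the choroid plexus. It was 295, 601, 651, 1768 and 989 CPM in AC-T 501, 502, 503, 600 and 602. In saline libraries Enpp2 ran from 222 CPM through a median of 449 to 1868. Its highest level was 8.43 times its lowest (7.98 times without saline 300), a far narrower range than that of Ttr, since the 3 punches lowest in Ttr still had at least 222 CPM of Enpp2. Otx2, a homeobox transcription factor of the choroid plexus, was 3.73, 5.88, 7.78, 20.8 and 12.5 CPM in the AC-T libraries. In saline libraries Otx2 ran from 5.61 CPM through a median of 7.55 to 27.5, and the highest level over all libraries was 7.39 times the lowest, or 5.59 times without saline 300.

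The remaining 8 choroid plexus genes were Folr1 (folate receptor alpha), Aqp1 (a water channel), Prlr (the prolactin receptor), Slc4a5 (a sodium bicarbonate transporter), Sostdc1 (a secreted antagonist of BMP and Wnt signals), Steap1 (of a family of metal reductases), Calml4 (a calmodulin-like protein) and Cldn2 (a tight junction claudin of leaky epithelia). Aqp1, Prlr, Slc4a5, Steap1 and Cldn2 were listed at 0 in the same 3 libraries, AC-T 501, saline 203 and saline 301, which were also the 3 lowest for Ttr. Folr1 was listed at 0 in AC-T 501 and saline 203, and Calml4 in saline 203 alone. Where the 5 genes with 3 listed zeros were above 0, they rose as high as 52.8 CPM for Prlr in saline 300. Of the 13 genes, 12 were highest in saline 300 and Aqp1 was highest in AC-T 600, and without saline 300 all 13 were highest in AC-T 600. Over all 15353 genes tested, saline 300 was the highest library for 15.6% and AC-T 600 for 8.17%. Summed over the 13 genes the level ran from 244 CPM in saline 203 to 7605 in saline 300, a ratio of 31.1, which was 30.2 without saline 300.

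**Figure D1:**
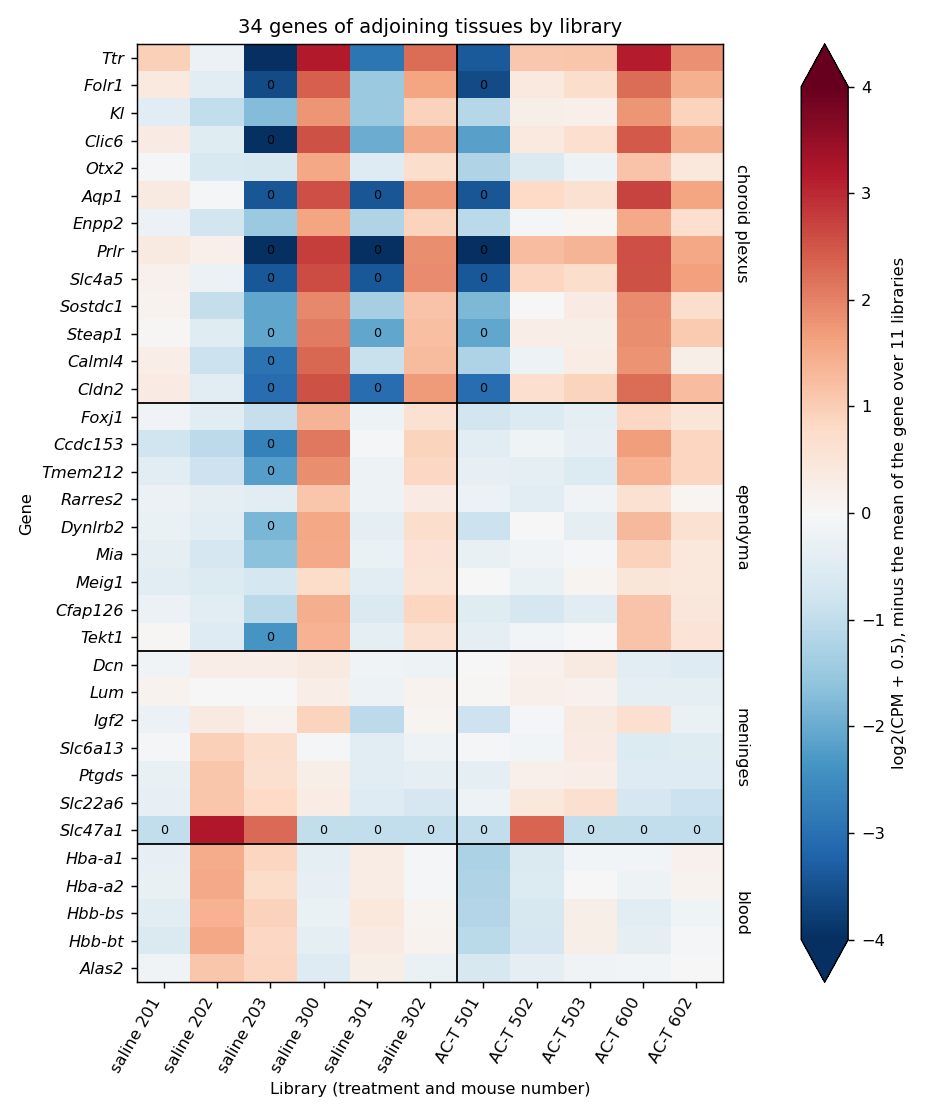
Level of the 34 genes (rows, grouped by tissue) in the 11 libraries (columns, saline left and AC-T right), as log2(CPM + 0.5) minus the mean of the gene, on a colour scale that saturates at 4 units; a 0 in a cell marks a value listed at 0. Choroid plexus and ependymal genes are high together in saline 300, saline 302, AC-T 600 and AC-T 602, whereas blood genes and part of the meningeal genes are high together in saline 202 and saline 203.

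Because Ttr had the widest range among the members above 0 in every library, it served as the yardstick for the other tested genes, in 32 relations over the 11 libraries. A further 10 relations used Ptgds for the meningeal and blood genes. Both scales were log2(CPM + 0.5), the p-values came from 100000 permutations (the smallest they can give is 1e-05), and Benjamini-Hochberg adjustment ran over all 42. The permutations moved libraries freely across treatments and mouse series, so the p-values take no account of either. All 12 choroid plexus genes followed Ttr, with Spearman rho from 0.927 to 1.0 (adjusted permutation p of 0.000336 or less) and Pearson r from 0.746 for Otx2 to 0.993 for Clic6 (adjusted permutation p of 0.0150 or less). Clic6 ranked all 11 libraries exactly as Ttr did. Without AC-T 501 and saline 203, the libraries farthest from the median of Ttr, r ran from 0.796 to 0.996. Within the 6 saline libraries r ran from 0.775 to 0.994, with exact permutation p between 0.00139 and 0.05, and without saline 300 it ran from 0.726 to 0.994 over 10 libraries. Relations were computed over at least 6 libraries, so none is given within AC-T or within a mouse series. These genes were selected as markers of 1 epithelium with earlier results of these libraries known, so their common order describes the punches and is no independent evidence.

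The ependymal genes were lower and less uneven, and they ran with the choroid plexus genes. Which cells in the punches carried them was not tested. Foxj1, the transcription factor that switches on the genes of motile cilia, was 8.21, 9.52, 10.8, 25.5 and 19.9 CPM in AC-T 501, 502, 503, 600 and 602. In saline libraries Foxj1 ran from 7.13 CPM in 203 through a median of 12.3 to 36.9 in 300. Its highest level was 5.18 times its lowest (3.57 times without saline 300), and the same punches were high as for Ttr. Ccdc153, a coiled-coil protein of ciliated cells, was 1.95, 2.39, 2.10, 9.91 and 5.41 CPM in the AC-T libraries. In saline libraries Ccdc153 was listed at 0 in 203, had a median of 2.04 CPM and reached 13.6 in 300. The ranges of the treatments overlapped for both genes, and the 600s stood above the 500s within AC-T.

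Rarres2 encodes the chemoattractant chemerin and was 6.58, 5.54, 6.99, 12.1 and 8.20 CPM in the AC-T libraries. In saline libraries Rarres2 ran from 5.51 CPM through a median of 6.60 to 17.2. It varied least of the ependymal genes, and saline 300 lay well above the rest. Cfap126, a protein of the ciliary base, was 1.74, 1.49, 1.86, 6.42 and 3.82 CPM in the AC-T libraries, and in saline libraries it ran from 0.973 CPM through a median of 1.98 to 8.10. The other 5 ependymal genes were Tmem212 (a membrane protein), Dynlrb2 (a dynein light chain), Mia (a secreted protein), Meig1 (needed in sperm formation) and Tekt1 (a tektin of ciliary microtubules). They stayed under 8 CPM in every library, and Tmem212, Dynlrb2 and Tekt1 were listed at 0 in saline 203.

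All 9 ependymal genes were highest in saline 300 and all 9 were lowest in saline 203. Without saline 300, 8 were highest in AC-T 600 and Meig1 in saline 302. Their sum ran from 14.4 to 103 CPM, a ratio of 7.16, which was 5.15 without saline 300. All 9 followed Ttr by rank, with Spearman rho from 0.746 to 0.964 (adjusted permutation p of 0.0208 or less). By Pearson r, from 0.639 to 0.921, 8 of 9 passed, and Rarres2 had an adjusted permutation p of 0.0544. The 9 values of r ran from 0.664 to 0.837 without AC-T 501 and saline 203, from 0.707 to 0.952 within saline (exact permutation p from 0.00278 to 0.0986), and from 0.623 to 0.918 without saline 300.

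**Figure D2:**
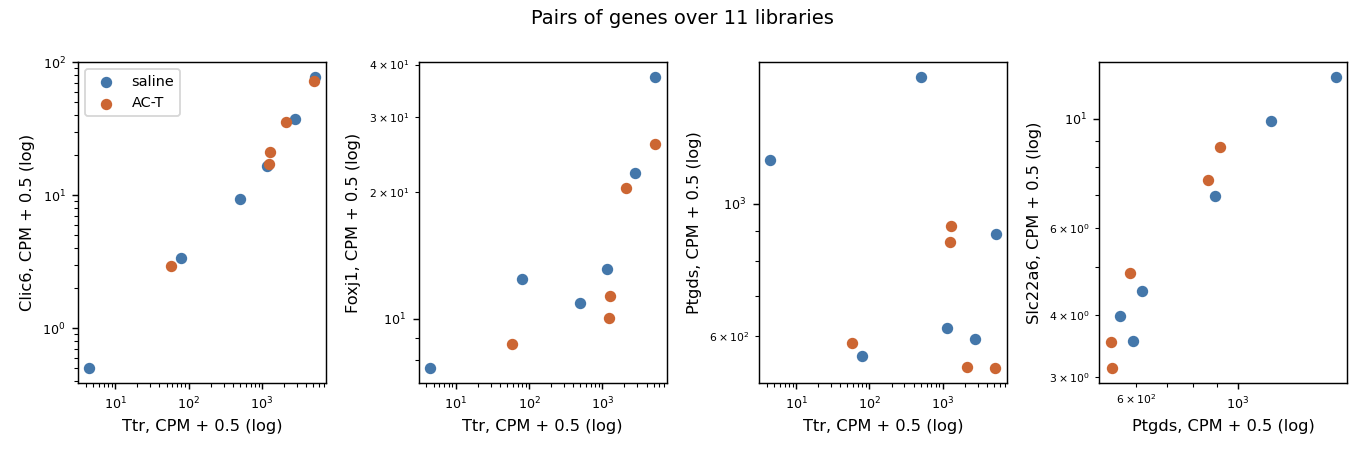
Clic6, Foxj1 and Ptgds against Ttr, and Slc22a6 against Ptgds, each point 1 of 11 libraries (blue saline, orange AC-T) on log axes of CPM + 0.5. Clic6 rises with Ttr over the whole range from 3.96 to 5268 CPM of Ttr, Foxj1 rises mainly at the upper end, Ptgds shows no order along Ttr, and Slc22a6 climbs with Ptgds.

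The meningeal genes did not run with Ttr as a group. Ptgds encodes prostaglandin D2 synthase, an abundant protein of the cerebrospinal fluid that the meninges, the choroid plexus and oligodendrocytes make. It was 582, 861, 916, 529 and 532 CPM in AC-T 501, 502, 503, 600 and 602. In saline libraries Ptgds ran from 555 CPM in 301 through a median of 754 to 1636 in 202. The highest level was 3.09 times the lowest, and saline 202 and saline 203 stood above the other 9 libraries, although they were low in Ttr. Slc6a13, a GABA transporter of the meninges, was 13.1, 12.7, 17.4, 9.22 and 9.70 CPM in the AC-T libraries, and in saline libraries it ran from 10.1 CPM through a median of 13.0 to 27.2. It was highest in saline 202 and lowest in AC-T 600.

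Dcn encodes decorin, a small proteoglycan that binds collagen, and was 34.7, 38.4, 43.9, 25.1 and 23.7 CPM in the AC-T libraries. In saline libraries Dcn ran from 29.9 CPM through a median of 36.2 to 44.2. It was among the least uneven of the 34 genes, with a highest level 1.86 times the lowest. Igf2, a growth factor of meninges and choroid plexus, was 87.5, 148, 200, 249 and 132 CPM in the AC-T libraries. In saline libraries Igf2 ran from 75.3 CPM in 301 through a median of 171 to 289 in 300. Its top library was thus that of the choroid plexus genes, not that of Ptgds.

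Lum (lumican, a proteoglycan related to decorin) stayed between 5.24 and 8.53 CPM, and Slc22a6 (an organic anion transporter) between 2.63 and 11.7. Slc47a1, an exporter of organic cations, was above 0 in saline 202 (8.53 CPM), AC-T 502 (4.43) and saline 203 (4.22) and was listed at 0 in the other 8 libraries, so it did not pass the filter for testing. Ptgds, Slc6a13, Slc22a6 and Slc47a1 were highest in saline 202, and Dcn, Lum and Igf2 in saline 300. Summed over the 7 genes the level ran from 681 to 1931 CPM, a ratio of 2.84.

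None of the 6 tested meningeal genes passed against Ttr, with rho from -0.555 to 0.536 and r from -0.450 to 0.513 (adjusted permutation p from 0.137 to 0.630 for rho and from 0.150 to 0.985 for r). Without AC-T 501 and saline 203, r ran from -0.203 to 0.795. The highest of these was that of Igf2, with rho 0.617. With Ptgds, 3 of 5 passed by both measures. Slc22a6 had rho 0.936 and r 0.960 (adjusted permutation p = 0.000368 and 3.5e-05), Slc6a13 rho 0.882 and r 0.931 (0.00158 and 6e-05) and Dcn rho 0.827 and r 0.796 (0.00457 and 0.00705). Without saline 202 and saline 203, the libraries farthest from the median of Ptgds, r was 0.957 for Slc22a6, 0.768 for Slc6a13 and 0.909 for Dcn. Within saline r was 0.984, 0.951 and 0.824, with exact permutation p = 0.00417, 0.00417 and 0.0958. Lum and Igf2 had r of 0.421 and 0.433 with Ptgds (adjusted permutation p = 0.241 and 0.231), and rho of 0.527 and 0.446 (0.155 and 0.233). Without saline 202 and saline 203, Lum had r 0.773 and rho 0.95, and Igf2 had r 0.469 and rho 0.4. Within saline r was 0.002 for Lum and 0.570 for Igf2, so the relation of Lum to Ptgds depended on the libraries used. Over all 5, r ran from 0.399 to 0.959 without saline 300.

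The blood genes formed another pattern. Hbb-bs encodes an adult beta globin chain and was 64.2, 93.0, 171, 107 and 130 CPM in AC-T 501, 502, 503, 600 and 602. In the saline mice Hbb-bs was 109 CPM in 201, 383 in 202, 275 in 203, 120 in 300, 193 in 301 and 157 in 302. Saline 202, 203 and 301 stood above every AC-T library and AC-T 501, 502 and 600 below every saline library, while the other 5 libraries were interleaved. Hba-a1, an alpha globin gene, was 34.4, 55.3, 76.3, 76.0 and 93.3 CPM in the AC-T libraries, and in saline libraries it ran from 64.3 CPM through a median of 90.7 to 233. Alas2, the first enzyme of haem synthesis in red cell precursors, was 1.41, 1.80, 2.23, 2.27 and 2.53 CPM in the AC-T libraries, and in saline libraries it ran from 1.62 CPM through a median of 2.64 to 6.02. All 5 blood genes were highest in saline 202 and lowest in AC-T 501, whereas over all genes tested these were the highest library for 12.9% and the lowest for 6.19%.

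The 4 globin genes are a pair of near-copies on each of chromosomes 11 and 7, so reads cannot always be assigned to 1 copy, and Salmon divides shared reads by probability. The coding sequences of Hba-a1 and Hba-a2, 429 bases in the GENCODE transcripts of GRCm38, differ by 1 substitution (C381T, Hba-a1 to Hba-a2, counted from the A of the start codon), an identity of 99.77%. Those of Hbb-bs and Hbb-bt, 444 bases, also differ by 1 (C417T, Hbb-bs to Hbb-bt). The stretches around each difference are shown because they are the only coding letters that tell the copies apart, with the differing base in capitals.
Hba-a1: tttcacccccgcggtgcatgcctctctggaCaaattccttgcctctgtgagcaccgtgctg
Hba-a2: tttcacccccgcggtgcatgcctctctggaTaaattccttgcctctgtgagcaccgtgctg
Hbb-bs: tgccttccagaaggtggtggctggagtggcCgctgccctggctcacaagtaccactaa
Hbb-bt: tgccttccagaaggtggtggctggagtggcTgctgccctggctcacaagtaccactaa

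The values of single copies are uncertain for that reason. Hba-a2 was 11.9, 19.1, 27.5, 24.2 and 30.8 CPM in AC-T 501, 502, 503, 600 and 602, and in saline libraries it ran from 22.1 CPM through a median of 30.8 to 80.6. Hbb-bt was 8.50, 11.5, 22.0, 14.3 and 18.0 CPM in the AC-T libraries, and in saline libraries it ran from 12.1 CPM through a median of 22.0 to 54.8. Both were highest in saline 202 and lowest in AC-T 501, like their partners. The ratio of Hba-a1 to Hba-a2 counts stayed between 2.78 and 3.21 in all 11 libraries and that of Hbb-bs to Hbb-bt between 6.99 and 8.95. The ratio of both alpha genes to both beta genes ran from 0.537 to 0.841. The summed globin level meanwhile ran from 119 CPM in AC-T 501 to 751 in saline 202, with means of 218 ± 71.6 (SD, n = 5) after AC-T and 388 ± 209 (SD, n = 6) after saline.

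Since the 4 globin genes moved together, the 120 bases before their start sites are given for 3 of them (RefSeq, GRCm38.p6), with the letters TATAA and CCAAT on either strand in capitals. Hba-a1 is at chr11:32283552-32283671 on the plus strand, Hbb-bs at chr7:103827929-103828048 on the minus strand and Hbb-bt at chr7:103813924-103814043 on the minus strand.
Hba-a1: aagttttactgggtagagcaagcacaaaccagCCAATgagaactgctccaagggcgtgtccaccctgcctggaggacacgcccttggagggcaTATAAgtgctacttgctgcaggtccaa
Hbb-bs: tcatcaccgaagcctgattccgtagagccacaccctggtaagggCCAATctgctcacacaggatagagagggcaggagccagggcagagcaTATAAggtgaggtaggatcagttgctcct
Hbb-bt: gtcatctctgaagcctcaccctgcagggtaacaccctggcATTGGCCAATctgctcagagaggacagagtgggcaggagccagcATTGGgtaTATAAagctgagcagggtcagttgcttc
The promoter of Hba-a2 (chr11:32296372-32296491, plus strand) holds the same letters in a window that begins 3 bases later: all 297 aligned bases of the promoter entries were identical. A promoter entry was found for 24 of the 34 genes. A gene was counted if any of its entries held the letters, whereas the shares of all promoters count single entries. The counts and shares are therefore in unlike units, and a gene with several entries is counted more easily. In the 250 bases before the start, TATAA occurred on either strand in 5 of 5 blood genes and in 22.8% of all 32851 promoters. CCAAT occurred in 4 of 5 and 33.8%, and GATAAG, the letters that GATA factors bind, in 4 of 5 and 6.55%. Of the 8 matched choroid plexus genes 1 (Otx2 itself) held TAATCC, the letters that OTX factors bind. So did 2 of 4 matched meningeal genes and 6.25% of all promoters. GTTGCC, part of the RFX recognition sequence, occurred in 3 of 7 matched ependymal genes, 3 of 8 choroid plexus, 1 of 4 meningeal and 3 of 5 blood genes, and in 10.4% of all promoters. These matches describe letters only.

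None of the 5 blood genes passed against Ttr, with rho from -0.346 to -0.218 and r from -0.460 to -0.213 (adjusted permutation p from 0.394 to 0.560 for rho and from 0.194 to 0.526 for r). With Ptgds rho ran from 0.155 to 0.509 and none passed (adjusted permutation p from 0.173 to 0.654). By Pearson r, from 0.620 to 0.685, 2 of 5 passed, Hbb-bs and Hbb-bt (adjusted permutation p = 0.0351 and 0.0355). This relation rests on saline 202 and saline 203, because without them r over the 5 genes ran from -0.399 to 0.050. Without saline 300 r ran from 0.660 to 0.732.

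To ask whether AC-T altered the share of adjoining tissue, the 33 tested genes were read from the fit over all 15353 genes with edgeR's quasi-likelihood test. None of the 33 passed an adjusted p of 0.05, while 8.47% of all genes did (4.89% higher and 3.58% lower), and the smallest adjusted p was 0.142 for Hbb-bs. At an unadjusted p of 0.05, 2 of 33 passed, Hbb-bs and Hba-a2, both lower after AC-T, against 24.9% of all genes, or 10.9% lower. The split over all genes depends on scaling, with 751 higher and 550 lower here, 593 and 663 with upper-quartile factors and 487 and 548 with library totals, whereas 0 of the 33 passed under each. DESeq2 and limma-voom also called 0 of 33, with 4 and 1 at an unadjusted p of 0.05. Over all genes DESeq2 called 18.1% of those it gave an adjusted p, and limma-voom called 8.69%. No member had groups that did not overlap, against 7.52% of all genes. The log2 fold change was above 0 for 17 and below 0 for 16, with a median of 0.04 against -0.003 over all genes tested. The edgeR p-values set the difference between treatments against the spread between the mice sequenced here, taken as independent. They take no account of the mouse series, each of which lies within 1 treatment. With the series as a random effect limma-voom called 1.91% of all genes and 0 of the 33.

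**Figure D3:**
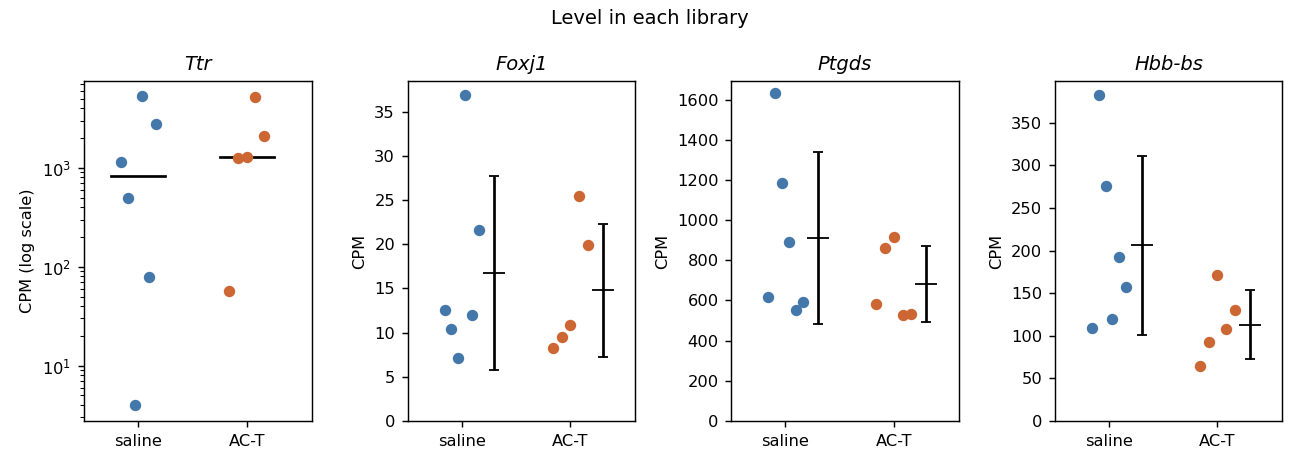
CPM of Ttr, Foxj1, Ptgds and Hbb-bs in each library (blue saline, orange AC-T); Ttr is on a log axis with a line at the median, and the others are on linear axes from 0 with mean ± SD. The groups overlap for all 4 genes, most narrowly for Hbb-bs, whose 3 highest libraries are saline and whose 3 lowest are AC-T.

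For the choroid plexus the interval of the difference was wide. Ttr averaged 1974 ± 1930 CPM after AC-T (SD, n = 5) and 1631 ± 2054 after saline (SD, n = 6; 903 ± 1143 without saline 300, n = 5), a log2 fold change of 0.28 ± 1.25 (SE) with a 95% interval from -2.46 to 3.01 (adjusted p = 0.925). Of the 13 genes 11 had a log2 fold change above 0, with a median of 0.23. That median was -0.35 without AC-T 600 and 1.08 without saline 300, so single punches set its sign and size, and it was 1.38 with limma-voom and 1.65 with the series as a random effect. The 9 ependymal genes had a median of 0.06, which became -0.42 without AC-T 600 and 0.67 without saline 300, and 0.57 and 0.68 in the same limma-voom fits. Foxj1 had -0.18 ± 0.43 (adjusted p = 0.846). With 1 of the other 9 libraries left out, the choroid plexus median ran from 0.01 (without saline 203) to 0.54 (without AC-T 501) and the ependymal median from -0.20 (without saline 203) to 0.25 (without AC-T 503). For the genes with a listed 0 the fit takes it as a count, so their fold changes depend on it.

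The 6 tested meningeal genes all had log2 fold changes below 0, with a median of -0.23. The largest was that of Ptgds at -0.42 ± 0.30 (95% interval -1.06 to 0.23, adjusted p = 0.428). Without saline 202 Ptgds had -0.17. The median of the 6 genes was -0.40 without AC-T 503, -0.15 without saline 203, -0.12 without saline 202 and -0.10 without AC-T 602, and -0.21 without saline 300. The 5 blood genes, which share most of their signal through the globins, lay between -0.87 and -0.68, with a median of -0.79. Hbb-bs averaged 113 ± 40.3 CPM after AC-T (SD, n = 5) and 206 ± 105 after saline (SD, n = 6), a log2 fold change of -0.87 ± 0.34 (95% interval -1.62 to -0.11, adjusted p = 0.142). Without saline 202 the median of the 5 genes was -0.47, and without saline 300 it was -0.92. The count of genes with an unadjusted p under 0.05 was 5 of 33 without saline 300 or saline 302, 4 without saline 201, 3 without AC-T 602, 1 without saline 301 and 0 without AC-T 501, AC-T 502, AC-T 600, saline 202 or saline 203, and 0 passed after adjustment in each case. That count was also 0 in limma-voom with the series as a random effect.

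**Figure D4:**
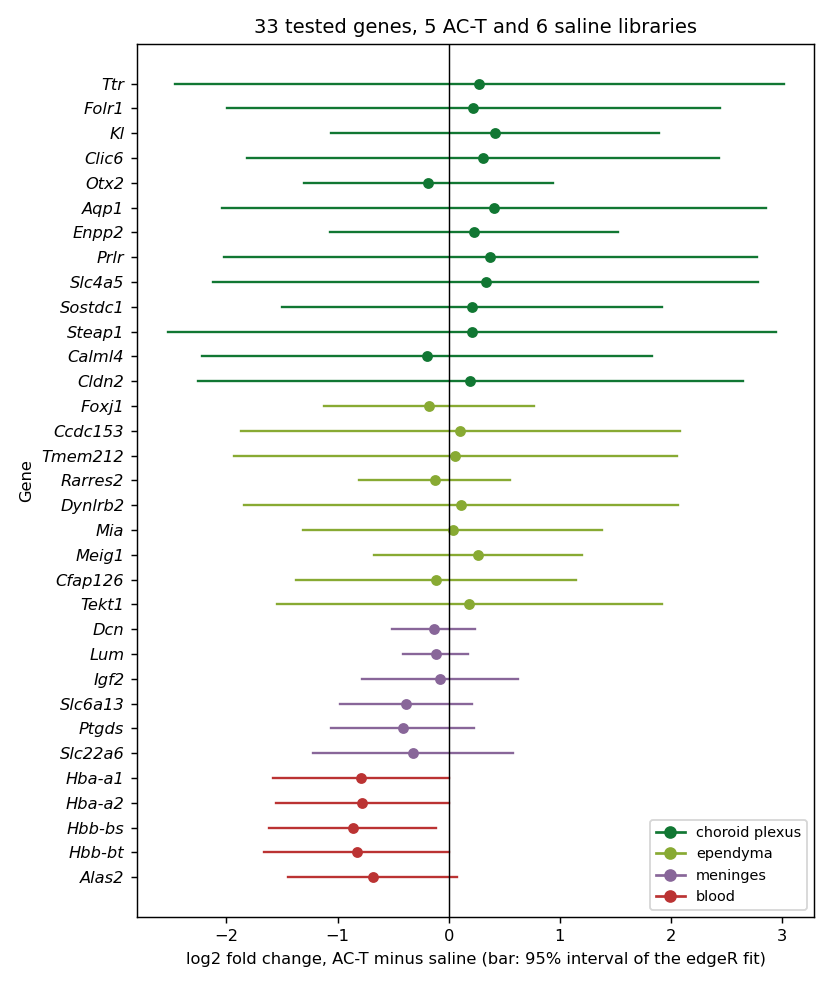
Log2 fold change, AC-T minus saline, of the 33 tested genes with its 95% interval from the edgeR fit, coloured by tissue (dark green choroid plexus, light green ependyma, purple meninges, red blood). Intervals of the choroid plexus genes all span 0, for example from -2.46 to 3.01 for Ttr and from -1.31 to 0.94 for Otx2. The 5 blood genes lie between -0.87 and -0.68 with upper limits close to 0.

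The spread within treatments set these genes apart from most others in size. The pooled SD of log2 CPM within the treatments was 3.29 for Ttr and 0.63 for Hbb-bs, with a median of 0.13 over all genes tested. Of the 33 genes, 13 lay above the 95th percentile of that SD and 8 above the 99th. Among these only Ttr was above 0 in every library. The SD takes a listed 0 as a count, so the percentiles of the others depend on it. The other choroid plexus genes above 0 in every library lay at 94.7 (Sostdc1), 93.3 (Kl), 92.9 (Enpp2) and 92.6 (Otx2). The median percentile was 99.5 for the choroid plexus genes, 93.0 for the ependymal, 91.5 for the meningeal and 92.1 for the blood genes. Without saline 300 the same 2 counts were 13 and 8, and the medians 99.4, 93.3, 92.5 and 92.9. Lum was the most even member, at the 79.5th percentile.

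The medians of the tissues also differed between the mouse series, but the punches within a series were uneven too. The 300s hold saline 300, at 5268 CPM of Ttr, and saline 301, at 79.1 CPM. Ttr differed between the 300s and the 200s by 2.29 ± 1.68 (SE, log2). How much of the spread lies between the series was not tested. In saline, the 300s were compared with the 200s (3 mice each). Choroid plexus genes had a median log2 difference of 2.21 and ependymal genes of 1.72, while meningeal genes had -0.43 and blood genes -0.85. None of the 33 passed after adjustment (edgeR, smallest adjusted p = 0.0951 for Slc6a13), against 1.03% of all genes. At an unadjusted p of 0.05, 14 did, against 20.1% of all genes (9.24% higher and 10.8% lower). Of these, Kl, Otx2, Enpp2 and 7 ependymal genes were higher in the 300s, and Slc6a13, Ptgds, Slc22a6 and Alas2 were lower. Foxj1 differed by 1.23 ± 0.36 (SE) and Slc6a13 by -0.86 ± 0.23. Without saline 201 Slc6a13 passed, at -1.10 ± 0.15 (adjusted p = 0.0186). Without saline 300 the medians of the choroid plexus, ependymal, meningeal and blood genes were 1.29, 1.13, -0.70 and -0.70. Without saline 202 the meningeal and blood medians were -0.23 and -0.33, and without saline 201 the blood median was -1.19.

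In AC-T, the 600s (2 mice) were compared with the 500s (3 mice). The medians were 1.74 for choroid plexus, 1.25 for ependymal, -0.59 for meningeal and 0.41 for blood genes. None of the 33 passed after adjustment (edgeR, smallest adjusted p = 0.174 for Lum), against 0.117% of all genes. At an unadjusted p of 0.05, 7 did, against 13.5% of all genes (6.39% higher and 7.09% lower). Of these, Otx2, Foxj1 and Cfap126 were higher in the 600s, and Dcn, Lum, Slc6a13 and Slc22a6 were lower. Foxj1 differed by 1.25 ± 0.39 and Lum by -0.55 ± 0.14. Without AC-T 600, which leaves mouse 602 alone in the 600s, the medians were 1.10, 1.06, -0.57 and 0.48. The blood median was 0.24 without AC-T 501 and 0.69 without AC-T 503. Treatment and series cannot be told apart in these libraries, and what the series stand for is not given in the sources used here.

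Other markers of the same tissues, from lists that do not overlap the 34 genes, were counted in the same way. Those lists too were chosen with earlier results of these data known. Of 19 other choroid plexus genes tested 17 were highest in saline 300, and so were 11 of 13 other ependymal and cilia genes; without saline 300, 19 and 12 were highest in AC-T 600. Of 16 other meningeal genes 12 were highest in saline 202. Between treatments 0 of the 19 choroid plexus and 0 of the 13 ependymal genes passed with edgeR, DESeq2 or limma-voom, and none had an unadjusted p under 0.05 with any of them. Of the 16 meningeal genes 1 was lower after AC-T by each tool, while edgeR called 3.58% of all genes lower. In both directions DESeq2 called 18.1% of the genes it gave an adjusted p, and limma-voom 8.69% of all genes. The 1 meningeal gene was Col15a1, a basement membrane collagen. It fell from 10.2 ± 2.26 CPM (SD, n = 6) to 6.47 ± 0.691 (SD, n = 5), a log2 fold change of -0.65 ± 0.15 (edgeR adjusted p = 0.0255). Of the neutrophil and platelet list 1 gene was tested and did not pass. The list of other red cell genes was not analysed here.

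Markers of cells within or beside the hippocampus were read from the same fit. These lists were also chosen with earlier results of these data known, so their counts are no independent evidence. Over all genes tested edgeR called 4.89% higher and 3.58% lower. In both directions together edgeR called 8.47% and limma-voom 8.69%, whereas DESeq2 called 18.1% of the genes it gave an adjusted p. Larger counts with DESeq2 are to be read beside that larger share. Of 9 endothelial genes edgeR called 1 lower after AC-T, Pecam1, an adhesion molecule of vessel walls, with a log2 fold change of -0.21 ± 0.06 (adjusted p = 0.0403), while DESeq2 called 4 and limma-voom 2. Of 8 astrocyte genes edgeR called 1 lower, the water channel Aqp4 at -0.46 ± 0.12 (adjusted p = 0.0356), while DESeq2 called 2 and limma-voom 1. Of 10 oligodendrocyte, 8 mural cell and 8 microglial genes 0 passed by any of the 3 tools, and 0 had an unadjusted p under 0.05. Of 12 hippocampal neuron genes 2 were higher after AC-T: Neurod6, a transcription factor of pyramidal neurons, at 0.72 ± 0.15 (edgeR adjusted p = 0.0150) and Mpped1 at 0.93 ± 0.22 (adjusted p = 0.0255). Thalamic and habenular markers, whose tissue lies across the fissure from the hippocampus, differed most: 12 of 13 were lower after AC-T with edgeR and DESeq2 and 11 with limma-voom, and the list summed to 665 to 973 CPM there and 1264 to 1905 in saline. The 3 with the smallest p were Adarb1, an RNA-editing enzyme, at -0.75 ± 0.09 (edgeR adjusted p = 0.00125), the gene Amotl1 at -0.91 ± 0.11 (adjusted p = 0.00192) and Ntng1, a netrin-like guidance protein, at -0.94 ± 0.12 (adjusted p = 0.00197). The part of this difference in thalamic and habenular markers in the values of the meningeal and blood genes was not tested.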

How the data were processed

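Polyadenylated RNA from hippocampal punches of 11 mice was sequenced as stranded libraries. The table deposited by the authors holds expected counts per gene, per the submitters' processing notes from Salmon 1.9.0 on build GRCm39, after Dragen 4.3.6 and FastQC 0.11.9; the annotation release is not given in the sources used here. The series text states 6 samples per group, and 5 AC-T libraries were analysed here. Counts were rounded and tested with edgeR 4.0.16 in R 4.3.3 (filterByExpr with a minimum count of 10, trimmed mean of M values, quasi-likelihood F test, 2-sided), with Benjamini-Hochberg adjustment over all 15353 genes kept and a threshold of 0.05. The biological coefficient of variation was 0.174. Gene positions on GRCm39 are not given. Globin coding sequences came from GENCODE transcripts and promoters from RefSeq, both of the older build GRCm38.

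The 34 genes and the 17 marker lists were chosen with earlier results of these data known. Values in every library, or lowest, median and highest in saline, are given for the 4 genes of each tissue with the highest mean CPM and for Foxj1, Otx2, Kl and Alas2. From other lists up to 3 genes past the threshold could be named. No set test was run. Alternatives were other scaling, filters, DESeq2 1.42.0, limma-voom 3.58.1 with and without the series as a random effect, unrounded values, other thresholds and omission of each library.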

Additional observations from a re-analysis of the deposited data

Results flagged for a closer look

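Of 68 checks of a single library against the rest of its treatment group, 3 flagged a value that lay far from the others, and chance alone flags about 1 group in 20. Calml4 was 12.9 CPM in AC-T 600, with the next AC-T library at 4.26. Rarres2 was 17.2 CPM in saline 300, with the next saline library at 9.86. Slc47a1 was 4.43 CPM in AC-T 502, with the other 4 AC-T libraries listed at 0.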

How the results depend on the processing

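Under all 24 alternatives and omissions 0 of the tested genes passed between treatments. Precision is limited by 5 and 6 mice, by the unequal punches and by listed zeros, since only 21 of the genes are above 0 everywhere. Over all genes 1301 passed, against 2559 with DESeq2, 293 with limma-voom and the series as a random effect (correlation 0.215), 2074 with 4 series means and 2295 at an adjusted p under 0.1, and 625 (without AC-T 502) to 1229 when 1 library was left out. Alternatives for the series contrasts were chosen after seeing the data. In saline 158 genes passed, against 415 with library totals alone, 385 among genes above 0 in all libraries, and 18 (without saline 302) to 304 (without AC-T 502) with 1 library left out. In AC-T 18 passed, against 4 among genes above 0 in all libraries. No count is given without AC-T 600 or AC-T 602, since either omission leaves a single mouse in the 600s. With 1 other library left out, 21 (without saline 202) to 120 (without AC-T 502) passed. The cause was not tested.

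Leaving out 1 library turned the sign of the log2 fold change, AC-T minus saline, in 22 genes, and the lowest value was always without AC-T 600 and the highest without saline 300. For choroid plexus genes the log2 fold change ran from -0.47 to 1.12 for Ttr, -0.35 to 0.96 for Folr1, -0.056 to 1.08 for Kl, -0.34 to 1.17 for Clic6, -0.62 to 0.28 for Otx2, -0.32 to 1.22 for Aqp1, -0.22 to 0.75 for Enpp2, -0.12 to 1.19 for Prlr, -0.28 to 1.14 for Slc4a5, -0.42 to 0.87 for Sostdc1, -0.40 to 1.08 for Steap1, -0.90 to 0.64 for Calml4 and -0.37 to 1.03 for Cldn2. For ependymal genes it ran from -0.47 to 0.21 for Foxj1, -0.45 to 1.01 for Ccdc153, -0.42 to 0.87 for Tmem212, -0.33 to 0.18 for Rarres2, -0.43 to 0.78 for Dynlrb2, -0.26 to 0.67 for Mia, -0.57 to 0.37 for Cfap126 and -0.16 to 0.72 for Tekt1, and for Igf2 from -0.28 to 0.12. Calml4 became 1.38 with limma-voom, 1.65 with the series as a random effect and 0.18 with 4 series means, and Cfap126 0.068, 0.15 and 0.044, from -0.19 and -0.11. Meig1, the other 5 tested meningeal genes and the 5 blood genes kept their sign throughout. No paired analysis was possible because the groups share no replicate numbers.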
